A study of Mus musculus with 8 samples.

Results

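The promoters of kinase and phosphatase signalling genes were followed in mouse kidney tubuloids by ATAC-seq, a method in which the Tn5 transposase cuts and tags open DNA. Members were the peaks whose centre lay 1000 bp or less from a transcription start site and whose gene symbol named a MAP kinase cascade gene (Map2k, Map3k, Map4k, Mapk), a phosphoinositide 3-kinase or Akt gene (Pik3, Akt), a phosphatase gene (Ppp1 to Ppp6, Ptp, Dusp) or another kinase gene (Rps6k, Prk, Stk, Csnk, Camk). This gave 97 peaks at 93 genes, out of 6425 peaks in all and 4162 peaks at promoters. The MAP kinase group held 27 peaks, the PI3 kinase and Akt group 5 peaks at 4 genes, the phosphatase group 40 peaks at 37 genes, and the other kinases 25 peaks. Symbols alone chose the members, so many encode no kinase or phosphatase enzyme. Of the 26 Ser/Thr phosphatase peaks, 20 were at genes of other than catalytic subunits. Pik3r1, Pik3r3, Prkab1 and Prkag1 also encode regulatory subunits. Some symbols stand for other proteins. Prkcsh encodes the beta subunit of glucosidase II, and Camkmt a methyltransferase of calmodulin. Prkra encodes an activator of the kinase PKR, and Mapkap1 the Sin1 subunit of the mTORC2 complex. The only gene chosen by the Akt part of the name was Akt1s1, which encodes PRAS40, a substrate of Akt and an inhibitor of mTORC1.

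All 8 libraries came from wild-type mice. Tubuloids, which are epithelial structures, were grown in Matrigel from cells of the dissociated kidney cortex, and were given vehicle (4 libraries) or myoglobin (4 libraries) for 12 h. Myoglobin is the haem protein of muscle, and the series used it to injure tubule cells; the comparison asks which promoters opened or closed under it. The series text names 4 mice, but no label ties a library to a mouse. The spread behind the p-values is therefore one between libraries, which may be technical. For each peak it was taken mostly from the trend over all peaks. The prior had 78.52 degrees of freedom, against 6 from the peak's own libraries.

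A MAP kinase cascade passes a signal from a MAP kinase kinase kinase through a MAP kinase kinase to a MAP kinase (ERK, JNK or p38), and dual-specificity phosphatases switch the last of these off. Phosphoinositide 3-kinase makes a membrane lipid that recruits Akt, downstream of growth factor receptors. Ser/Thr phosphatases such as PP1 and PP2A work as a few catalytic subunits steered by many regulatory subunits, and tubule cells use all these routes in stress, survival and repair. An ATAC-seq peak reports the openness of the DNA, and neither the RNA nor the activity of the kinase.

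Promoter sequence was read from RefSeq windows of 300 bases on GRCm38.p6, the assembly that mm10 names, running from 250 bases before to 50 after each start. Windows were found for 77 of the 93 genes, and 70 member peaks overlapped a window of their gene. The stretches printed here are the parts of the peaks covered by those windows. They were chosen for members whose vehicle and myoglobin libraries did not overlap and that had a window on their peak (Prkab1, Rps6ka2, Map3k7, Ppp1r3c and Mapkap1). Map3k2, whose libraries did not overlap either, had no such window. The others were the members with the highest and the lowest difference (Stk16 and Pik3r3), and Ppp2ca, which carries a full cAMP response element. Each is written 5′ to 3′ on the strand of its gene, and capitals mark matches on either strand to the motifs searched. In Rps6ka2 and Ppp1r3c, ATTGG is the reverse complement of the CCAAT box. In Ppp1r3c, CACGTG is an E-box. In Mapkap1, CCCGCCCC is the reverse complement of the SP/KLF motif GGGGCGGG and ACTTCCGG that of the ETS motif CCGGAAGT. In Ppp2ca, TGACGTCA is the cAMP response element and TGACG its shorter core.
Prkab1 (chr5:116024388-116024596, minus strand): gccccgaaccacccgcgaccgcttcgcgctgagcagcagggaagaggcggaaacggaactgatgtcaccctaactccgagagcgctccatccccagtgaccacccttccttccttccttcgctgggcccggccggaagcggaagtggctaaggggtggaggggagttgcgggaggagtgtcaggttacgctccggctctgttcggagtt
Rps6ka2 (chr17:7169865-7170131, plus strand): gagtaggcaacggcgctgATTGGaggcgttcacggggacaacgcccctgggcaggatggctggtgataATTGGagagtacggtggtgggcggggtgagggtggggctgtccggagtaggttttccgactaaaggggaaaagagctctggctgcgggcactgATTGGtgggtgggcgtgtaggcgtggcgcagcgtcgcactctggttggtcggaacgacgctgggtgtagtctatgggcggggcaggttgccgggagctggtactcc
Map3k7 (chr4:31963918-31964096, plus strand): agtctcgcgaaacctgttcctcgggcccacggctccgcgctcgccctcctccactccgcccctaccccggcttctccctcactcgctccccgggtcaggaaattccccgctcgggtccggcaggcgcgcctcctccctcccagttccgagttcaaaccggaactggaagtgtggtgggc
Ppp1r3c (chr19:36736678-36736850, minus strand): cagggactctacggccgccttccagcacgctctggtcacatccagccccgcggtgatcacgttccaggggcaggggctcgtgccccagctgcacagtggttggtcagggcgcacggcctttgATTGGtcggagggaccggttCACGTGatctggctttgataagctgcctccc
Mapkap1 (chr2:34406752-34406900, plus strand): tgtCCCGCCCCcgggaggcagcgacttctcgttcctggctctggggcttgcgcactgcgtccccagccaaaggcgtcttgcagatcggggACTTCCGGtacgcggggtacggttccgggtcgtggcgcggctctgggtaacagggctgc
Stk16 (chr1:75210793-75210878, plus strand): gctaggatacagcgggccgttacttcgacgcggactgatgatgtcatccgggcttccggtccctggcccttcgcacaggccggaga
Pik3r3 (chr4:116221562-116221656, plus strand): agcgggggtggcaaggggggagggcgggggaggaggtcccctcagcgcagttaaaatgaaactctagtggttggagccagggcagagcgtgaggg
Ppp2ca (chr11:52098576-52098835, plus strand): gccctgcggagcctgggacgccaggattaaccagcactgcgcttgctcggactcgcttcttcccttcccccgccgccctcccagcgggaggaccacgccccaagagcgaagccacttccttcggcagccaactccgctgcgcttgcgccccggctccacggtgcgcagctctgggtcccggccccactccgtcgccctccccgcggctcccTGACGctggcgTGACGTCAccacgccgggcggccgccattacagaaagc

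Member promoters were rich in G, C and CpG, and close to other promoters in this table. Windows were counted per peak, so the one shared by both Ppp1r12a peaks was counted for each. Over 70 member peaks the windows had a median GC content of 65.3%. It was 64.0% at all promoter peaks with a window and 52.7% over all 32851 windows. The median ratio of observed to expected CpG was 0.841 in members, 0.817 at promoter peaks and 0.384 over all windows. The window of Ptpn6, the gene of the tyrosine phosphatase SHP-1, had the lowest ratio among members, 0.282. The core TGACG was found in the windows of 35 of 70 member peaks (50.0%). At promoter peaks it was in 37.3% of windows, and in 20.8% of all windows. The full element TGACGTCA, whose matches are also matches to the core, was in 2 member windows (2.86%), those of Ppp2ca and Stk38l, against 3.85% and 1.79%. GGGGCGGG was in 34.3% of member windows (41.9% and 16.5%), CCAAT in 41.4% (51.5% and 37.4%) and the AP-1 motif TGANTCA in 2.86% (4.46% and 7.81%). These matches describe the letters in the windows and were set against no test.

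MAP kinase genes had a promoter peak more often than coding genes as a whole. Of the 54 coding genes in RefSeq that the MAP kinase name takes, 27 (50.0%) had one, against 17.0% of 21896 coding genes. The share was 25.5% for phosphatase genes (37 of 145), 28.1% for other kinases (25 of 89) and 20% for PI3 kinase and Akt genes (4 of 20). Among the MAP kinase kinases it was 5 of 7, and among the dual-specificity phosphatases 4 of 24. Some smaller families were closer to the MAP kinase share, such as PP2A genes (7 of 16, 43.8%) and casein kinases (4 of 10, 40%). Others were not, such as PP1 genes (9 of 45, 20%). All genes that the member names take were at 30.2% (93 of 308). Genes with no peak assigned to them included Mapk3 (ERK1), Map2k1 (MEK1), Pik3cb, Akt1, Akt2, Dusp1, Ptpn1, Ptpn11, Ppp1r15a and Stk11. The difference in these shares was not tested.

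The values are reads per peak that the authors had scaled between libraries and rounded, so that library totals lay between 124415 and 126782. From the steps between the whole numbers, the reads in peaks were estimated at 130568 to 200519 in the vehicle libraries and 67645 to 123453 in the myoglobin libraries. On average myoglobin libraries had 0.589 times the reads of vehicle libraries (p = 0.0286 in an exact permutation test, two-sided, which is the smallest p that 70 assignments can give). Myoglobin replicates 3 and 2 were the shallowest, with 67645 and 82475 estimated reads, of which 1062 and 1438 fell in the 97 members; the other libraries had 1979 to 3356 reads there. Depth therefore moved with treatment, its part in the results was not tested, and results are given with and without those 2 libraries. Of the genes listed as proximal tubule markers, Cdh16 and Cryl1 had a peak (2 of 12 genes, summed values 50 to 62 in vehicle and 45 to 67 in myoglobin). Of those listed for the loop, distal tubule and collecting duct, Epcam and Scnn1g had one (2 of 12, 26 to 44 and 38 to 45). How specific the listed genes are to a segment was not tested. Lrp2, Hnf4a and the other tubule markers had none, and neither did the endothelial, fibroblast and pericyte, immune or podocyte lists, so the labelled cell type could be checked on few genes. In such bulk libraries, fewer cells with an open promoter and less openness per cell cannot be told apart.

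In vehicle, member promoters were about as open as other promoters. Their median value per kb of peak was 80.9, against 79.1 over all promoter peaks. It was 78.8 in MAP kinase, 83.6 in phosphatase, 101 in PI3 kinase and Akt and 71.4 in other kinase peaks. The highest were Ptpn6 at 162 per kb, Map3k3 (the kinase MEKK3) at 157 and Rps6ka2 (the ERK-activated kinase RSK3) at 155, and the lowest was Stk16, a Golgi-associated kinase, at 21.4. Member peaks had a median width of 203 bp, and 65 of 97 (67.0%) covered the start site, against 62.9% of promoter peaks. Libraries of 1 group differed at a member by a median coefficient of variation of 20% in vehicle and 24.7% in myoglobin. Counting error alone, taking the estimated reads as independent, would give 21.0% and 27.3% at the median member, while among PI3 kinase and Akt peaks the vehicle values were 27.2% and 22.6%, and among other kinases 27% and 24.3% (between libraries and from counting).

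**Figure D1:**
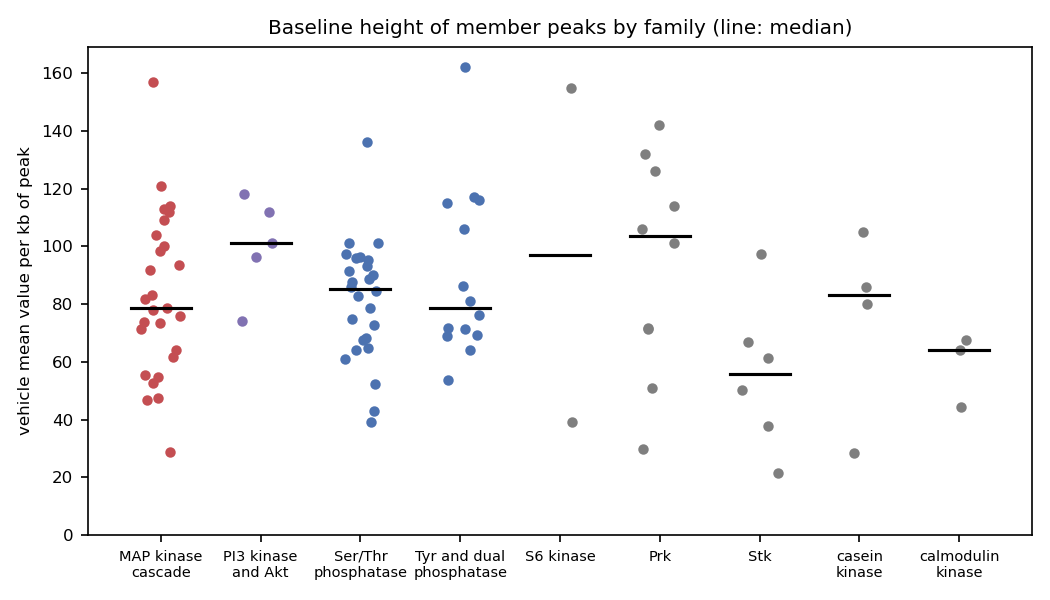
Each point is 1 member peak: its mean value over the 4 vehicle libraries per kb of peak (vertical axis, scaled reads per kb), by gene family (horizontal axis), with a line at the family median. Families overlap widely between 21.4 (Stk16) and 162 (Ptpn6) per kb.

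No kinase or phosphatase promoter passed the test between myoglobin and vehicle. By limma with Benjamini-Hochberg adjustment over all 6425 peaks, 0 of 97 members had an adjusted p under 0.05, and the lowest was 0.277, at Stk16. Across all peaks, 0.249% of peaks were called in either direction, 0.202% as higher and 0.0467% as lower with myoglobin. At an unadjusted p under 0.05 there were 7 members. Of these, 5 were higher (Stk16, Map3k2, Prkab1, Rps6ka2 and Ppp1r15b), or 5.15% of members against 3.67% of all peaks, and 2 were lower (Pik3r3 and Csnk1g3), or 2.06% against 3.92%. All 4 myoglobin libraries lay above all 4 vehicle libraries at 5 members (5.15% against 1.45% of all peaks) and below them at 1 (1.03% against 1.59%). No other kind of test was run, and every alternative limma fit also called 0 members.

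The members were spread evenly around no change. With myoglobin 49 had a higher fitted value and 48 a lower one, and the median log2 difference was 0.02, against -0.02 over all peaks and -0.01 over promoter peaks. All differences were taken between log2(value + 1), and those of low peaks come out too small for it. Below, ± after a log2 difference gives its SE by limma, and ± after a mean value gives the SD over 4 libraries. Of the 97 members, 85 lay within 0.5 of zero. The 95% interval lay wholly within a fold of 2 in either direction at 74 members (76.3%), the same share as over all peaks (76.3%; 80.1% of promoter peaks). At the other 23 members a change of that size was not excluded by the interval.

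**Figure D2:**
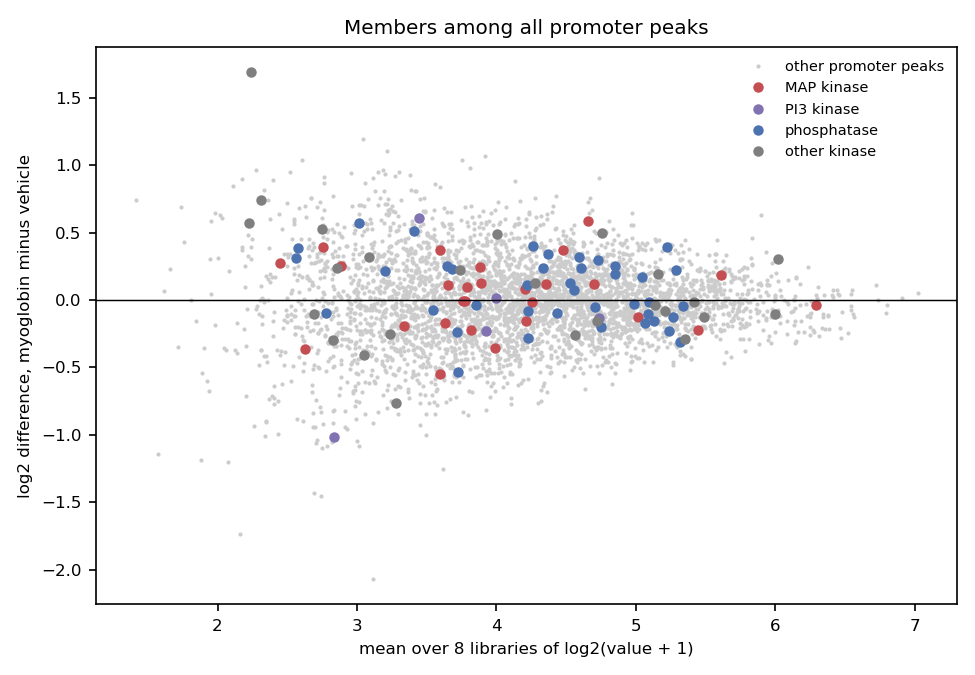
Each point is 1 promoter peak, with its mean log2(value + 1) over 8 libraries on the horizontal axis and its log2 difference, myoglobin minus vehicle, on the vertical axis; coloured points are the 97 members. Members lie among the grey promoter peaks on both sides of 0, with Stk16 at 1.69 highest and Pik3r3 at -1.02 lowest among them.

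The MAP kinase, PI3 kinase and phosphatase groups each held both higher and lower peaks, and they were not tested against each other. The median log2 difference was 0.08 over 27 MAP kinase peaks (14 higher, 13 lower, range -0.55 to 0.58), -0.14 over 5 PI3 kinase and Akt peaks (2 higher, 3 lower, range -1.02 to 0.61) and 0.09 over 40 phosphatase peaks (21 higher, 19 lower, range -0.53 to 0.57). The other kinases had a median of -0.02 (12 higher, 13 lower, range -0.76 to 1.69). Without myoglobin replicate 2 the MAP kinase median was -0.03, and without both of the shallowest libraries the 3 medians were -0.08, 0.00 and 0.11, so the sign of the small MAP kinase median rested on those libraries. The PI3 kinase and Akt median of 5 peaks ran from -0.27 without vehicle replicate 1 to -0.04 and -0.01 without vehicle replicates 2 and 4.

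Values were also summed over each group, by library. MAP kinase peaks summed to 501, 517, 537 and 508 in vehicle replicates 1 to 4 and to 528, 563, 508 and 533 in myoglobin replicates 1 to 4. PI3 kinase and Akt peaks summed to 63, 77, 72 and 92 in vehicle and to 67, 78, 68 and 76 in myoglobin. Phosphatase peaks summed to 876, 925, 864 and 893 in vehicle and to 962, 961, 867 and 908 in myoglobin. The libraries of both treatments overlapped in all 3 groups, and the lowest myoglobin sum of the phosphatases came from replicate 3, the shallowest library. No test was made on these sums.

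**Figure D3:**
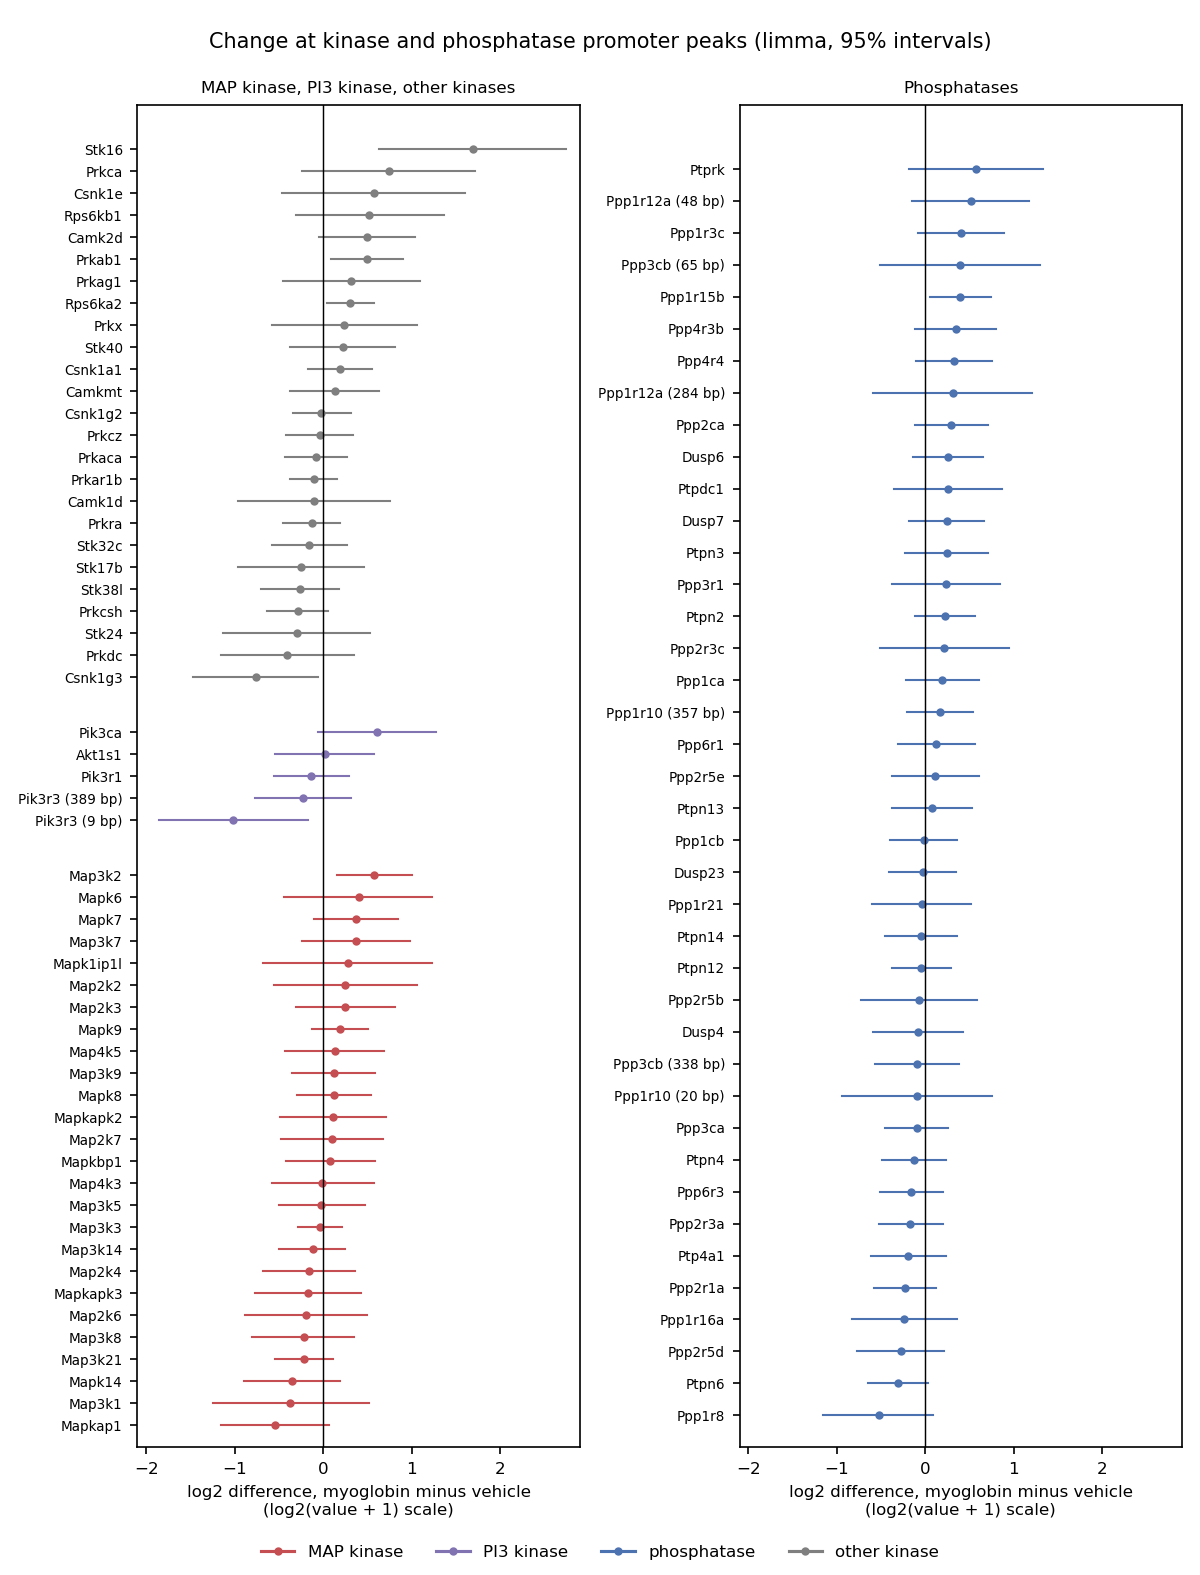
Points give the log2 difference, myoglobin minus vehicle, of 96 of the 97 member peaks on the log2(value + 1) scale (horizontal axis), with the 95% limma interval as a line and the gene on the vertical axis, by group; genes with 2 peaks carry the distance to the start site. Intervals cross 0 at all but 7 members, and 0 members were called after adjustment.

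Among the kinases at the head of the MAP kinase cascade, Map3k2 had the smallest p. It encodes MEKK2, a kinase upstream of ERK5 and JNK, and its peak covered the start site. Its value was 19, 24, 17 and 19 in vehicle and 29, 31, 26 and 34 in myoglobin. All myoglobin libraries were above all vehicle libraries, with means of 30 ± 3.37 and 19.8 ± 2.99 (SD over 4 libraries each). Its log2 difference was 0.58 with an SE of 0.21, with unadjusted p = 0.00686 and adjusted p = 0.470 by limma. Without the shallowest libraries it was 0.65 (adjusted p = 0.323 by limma).

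Map3k7 encodes TAK1, which relays TGF-beta, interleukin-1 and TNF signals to p38, JNK and NF-kB. Its peak, whose sequence is printed above, read 11, 7, 11 and 10 in vehicle and 13, 12, 13 and 13 in myoglobin. The groups did not overlap. The difference of 0.37 had an SE of 0.31 and a 95% interval of -0.24 to 0.98 (adjusted p = 0.839 by limma). That SE came mostly from the trend over all peaks and not from these values. Map3k5, the gene of the redox-sensitive kinase ASK1, read 16, 23, 15 and 20 in vehicle and 17, 20, 22 and 14 in myoglobin, with overlapping groups and a difference of -0.02 ± 0.24. Map3k1 (MEKK1) was at -0.37 ± 0.44 and the tall Map3k3 peak at -0.04 ± 0.12, the narrowest interval of the group (-0.28 to 0.21). Over the 11 MAP4K and MAP3K peaks, 4 were higher and 7 lower, with a median of -0.02.

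The 5 MAP kinase kinases with a peak were Map2k2 (MEK2), Map2k3, Map2k4, Map2k6 and Map2k7, which act on ERK, p38 or JNK. Their differences ran from -0.19 to 0.25 with a median of 0.10, and 0 had an unadjusted p under 0.05 by limma. Map2k3 stood at 12.8 ± 3.10 in vehicle and 15.5 ± 4.65 in myoglobin, and Map2k2 at 6 ± 2.16 and 7.75 ± 4.35. Both sets of libraries overlapped.

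All 6 MAP kinase peaks covered their start site, and their differences ran from -0.35 to 0.40 with a median of 0.15. Mapk14, the gene of p38 alpha, read 22, 14, 18 and 15 in vehicle and 11, 12, 11 and 20 in myoglobin. Thus 3 myoglobin libraries were below every vehicle library and replicate 4 was near the top of them, for a difference of -0.35 ± 0.27 (adjusted p = 0.815 by limma). The JNK genes Mapk8 and Mapk9 were at 0.12 ± 0.21 and 0.19 ± 0.16, with 39 to 50 in vehicle and 34 to 67 in myoglobin at Mapk9. Vehicle and myoglobin libraries overlapped at both JNK genes.

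Downstream of the MAP kinases, Mapkapk2, the gene of the p38 substrate kinase MK2, was at 0.11 ± 0.30. Rps6ka2 (RSK3), a kinase activated by ERK, was the taller per kb of the 2 S6 kinase members. It read 58, 60, 51 and 61 in vehicle and 66, 84, 73 and 63 in myoglobin. The groups were apart by 2 units, from 57.5 ± 4.51 to 71.5 ± 9.33, a difference of 0.30 ± 0.13 with unadjusted p = 0.0250 and adjusted p = 0.589 by limma. Without the shallowest libraries it was 0.17 (adjusted p = 0.842 by limma), so much of the step lay in myoglobin replicates 2 and 3. Rps6kb1, the gene of the mTORC1 target S6 kinase 1, was low at 4.75 ± 1.5 and 7.25 ± 2.06.

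Mapkap1 was the only member with all myoglobin libraries below all vehicle libraries. Sin1, its product, holds together the mTORC2 complex that phosphorylates Akt, although its name places it in the MAP kinase group. Its peak read 15, 12, 16 and 12 in vehicle and 11, 11, 9 and 6 in myoglobin. The difference was -0.55 ± 0.31 (unadjusted p = 0.0805, adjusted p = 0.698 by limma) and -0.68 without the shallowest libraries (adjusted p = 0.600).

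The PI3 kinase and Akt peaks did not move together. Pik3r3, the gene of the p55 gamma regulatory subunit, had 2 peaks, at chromosome 4, 116221562 to 116221656 (9 bp from the start site) and 116221159 to 116221298 (389 bp). The nearer one read 7, 7, 10 and 14 in vehicle and 6, 2, 9 and 2 in myoglobin. Replicates 2 and 4 of myoglobin were low while replicates 1 and 3 lay near or within the vehicle values, for a difference of -1.02 ± 0.42 with unadjusted p = 0.0185 and adjusted p = 0.575 by limma. It rested on an estimated 50 reads over the vehicle and 14 over the myoglobin libraries. Leaving out 1 library at a time gave -1.35 to -0.77, and leaving out the shallowest pair gave -1.15 (adjusted p = 0.391). The farther Pik3r3 peak was at 15.5 ± 1.91 and 13.2 ± 2.87, a difference of -0.23 ± 0.27.

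Pik3ca, the gene of the catalytic subunit p110 alpha, read 10, 9, 4 and 10 in vehicle and 9, 14, 19 and 10 in myoglobin. The groups overlapped, and the highest value was in the shallowest library; the difference of 0.61 ± 0.34 (adjusted p = 0.684 by limma) was 0.25 without the shallowest pair. Pik3r1, the gene of the main regulatory subunit p85 alpha, was at 27.8 ± 7.54 and 25 ± 6.06 (-0.14 ± 0.21), and Akt1s1 at 15 ± 2.16 and 16.2 ± 6.24 (0.02 ± 0.28).

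Of the Ser/Thr phosphatase peaks, 14 were higher and 12 lower, with a median of 0.12, against 7 and 7 with a median of 0.02 among the tyrosine and dual-specificity phosphatases. Ppp1r15b had the smallest p of the phosphatases. It encodes CReP, the subunit that steers PP1 to the translation factor eIF2 alpha and so reverses the integrated stress response. Its peak, at chromosome 1, 133131075 to 133131308, read 28, 32, 30 and 37 in vehicle and 40, 44, 37 and 47 in myoglobin. The groups touched at 37, and the mean went from 31.8 ± 3.86 to 42 ± 4.40, a difference of 0.39 ± 0.17 with unadjusted p = 0.0252 and adjusted p = 0.589 by limma. It was 0.45 without the shallowest pair (adjusted p = 0.478). Its stress-induced counterpart Ppp1r15a had no peak.

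Ppp1r3c, which targets PP1 to glycogen, read 16, 17, 13 and 17 in vehicle and 22, 18, 26 and 19 in myoglobin. The groups were apart by 1 unit, with a difference of 0.40 ± 0.24 (adjusted p = 0.721 by limma). Ppp1r8, the gene of a nuclear inhibitor of PP1, read 17, 13, 14 and 16 in vehicle and 13, 20, 4 and 9 in myoglobin, a difference of -0.53 ± 0.31. Its myoglobin libraries spread from 4 to 20, past the vehicle range on both sides.

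Catalytic phosphatase subunits showed differences between -0.10 and 0.39 over 6 peaks, with 3 higher and 3 lower. Ppp2ca, the catalytic subunit of PP2A, was at 23.0 ± 2.58 and 28.8 ± 5.74 (0.29 ± 0.21), and Ppp1ca, of PP1, at 26.5 ± 6.35 and 31.2 ± 9.74 (0.19 ± 0.21). Ppp3ca, of calcineurin, was at 34.2 ± 2.50 and 32.2 ± 6.13 (-0.10 ± 0.18, 95% interval -0.46 to 0.26). Libraries of both treatments overlapped at all 3 genes. Without the shallowest pair the differences were 0.37 at Ppp2ca, 0.43 at Ppp1ca and -0.14 at Ppp3ca. The adjusted p was then 0.675, 0.567 and 0.906 by limma, and the unadjusted p at Ppp1ca was 0.045. Over the 7 PP2A peaks the median was -0.07, and over the 11 PP1 peaks 0.17.

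Ptpn6, the tallest member per kb in the vehicle libraries, read 47, 41, 46 and 40 in vehicle and 45, 40, 28 and 29 in myoglobin. Replicates 3 and 4 of myoglobin were below every vehicle library and the other pair was not, for a difference of -0.31 ± 0.17 (adjusted p = 0.689 by limma). SHP-1, its product, is best known from blood cells, where it dampens receptor signalling, and epithelial cells also make it from a promoter of their own. The immune marker genes, among them Ptprc and Cd68, had no peak in the table. Ptpn2, the gene of a phosphatase of JAK and STAT proteins, was at 35.5 ± 4.93 and 41.5 ± 5.57 (0.22 ± 0.17), and the receptor phosphatase gene Ptprk at 5.75 ± 1.26 and 9.25 ± 3.20 (0.57 ± 0.38).

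The 4 Dusp peaks, of dual-specificity phosphatase genes, showed no shared direction. Dusp6, an ERK phosphatase whose gene is itself induced by ERK, was at 25.5 ± 2.89 and 30.8 ± 4.57, with myoglobin replicates 1 to 3 at 32 to 34, above every vehicle library, and replicate 4 at 24. Dusp4 was at 19.0 ± 6.22 and 17.8 ± 4.99 (-0.08 ± 0.26). Over the 4 Dusp peaks, with Dusp7 and Dusp23, the differences ran from -0.08 to 0.25, and 0 had an unadjusted p under 0.05 by limma.

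Among the other kinases, Stk16 had the largest difference and also the lowest vehicle mean. Its peak, at chromosome 1, 75210793 to 75210910, lies at a start shared on the opposite strand with Glb1l. It read 7, 2, 0 and 1 in vehicle and 5, 8, 7 and 11 in myoglobin. Vehicle replicate 1 lay within the myoglobin range and the other three below it, and the mean went from 2.50 ± 3.11 to 7.75 ± 2.50. The log2 difference was 1.69 ± 0.53 (95% interval 0.63 to 2.74; unadjusted p = 0.00203, adjusted p = 0.277 by limma), from an estimated 14 reads over the vehicle and 24 over the myoglobin libraries. Leaving out 1 library at a time gave 1.22 to 2.22, with an unadjusted p from 0.000322 to 0.0194 by limma. The adjusted p came down to 0.122 without vehicle replicate 1. Without vehicle replicate 3, whose value was 0, no member, Stk16 included, had an adjusted p under 0.75. The difference was 1.69 without the shallowest pair (adjusted p = 0.391).

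Prkab1, the beta 1 subunit of the energy sensor AMPK, read 21, 22, 27 and 18 in vehicle and 28, 35, 28 and 34 in myoglobin. The groups were apart by 1 unit, from 22.0 ± 3.74 to 31.2 ± 3.77, a difference of 0.49 ± 0.20 with unadjusted p = 0.0176 and adjusted p = 0.575 by limma, and 0.48 without the shallowest pair. Its partner subunit gene Prkag1 was at 7.50 ± 4.65 and 9 ± 3.56, with overlapping libraries. Csnk1g3, a membrane-bound casein kinase 1, read 12, 9, 17 and 10 in vehicle and 5, 12, 7 and 4 in myoglobin. Of its myoglobin libraries 3 were below all vehicle libraries and replicate 2 was not, for a difference of -0.76 ± 0.35 with unadjusted p = 0.0346 and adjusted p = 0.613 by limma. Without the shallowest pair, of which replicate 2 is one, it was -1.21 (adjusted p = 0.260).

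**Figure D4:**
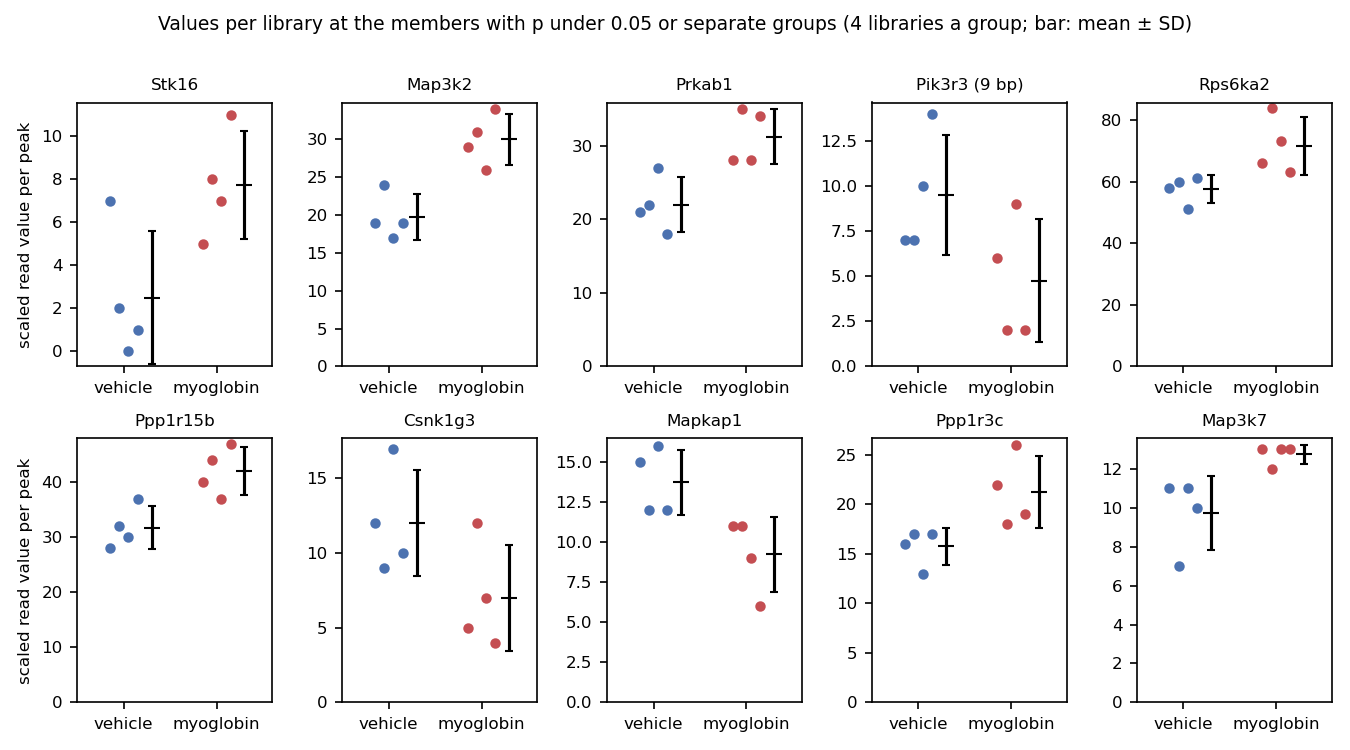
Scaled read value per peak (vertical axis) in the 4 vehicle (blue) and 4 myoglobin (red) libraries, with mean ± SD as a bar, for the 10 members with an unadjusted p under 0.05 or with groups that do not overlap. At Map3k2 the myoglobin libraries sit between 26 and 34 and the vehicle libraries between 17 and 24; at Stk16 all values are 11 or less.

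Calcium and cyclic AMP kinases were on either side of 0. Camk2d, a calmodulin-dependent kinase, was at 13.0 ± 3.92 and 18.5 ± 4.80 (0.49 ± 0.27, adjusted p = 0.689 by limma). Prkaca, the catalytic subunit of protein kinase A, was at 37.2 ± 4.27 and 35.2 ± 5.80 (-0.08 ± 0.18). Csnk1e was low at 3 ± 1.41 and 5.25 ± 2.99, while Csnk1a1 was at 32.8 ± 5.06 and 38 ± 9.06. Prkcsh was at 45.0 ± 9.63 and 36.8 ± 9.14 (-0.29 ± 0.17).

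Of the 4 genes with 2 member peaks, 3 had peaks of unequal height, and the peaks of Pik3r3 were alike (101 and 112 per kb in vehicle). At Ppp1r10, which encodes a nuclear PP1 regulator, the peak 357 bp from the start stood at 90.2 per kb and the one at 20 bp at 52.4 per kb. At Ppp3cb, a catalytic gene of calcineurin, the values per kb were 87.8 at 338 bp and 39.1 at 65 bp. At Ppp1r12a, the myosin phosphatase targeting gene, they were 68.4 at 48 bp and 42.8 at 284 bp. None of these 6 peaks had an unadjusted p under 0.05 by limma. At the distance limit, the last members inside were Pik3ca (651 bp), Map3k1 (789 bp), Dusp7 (799 bp) and Stk24 (854 bp), with differences from -0.37 to 0.61. These are the deposited distances. The Pik3ca peak also overlapped a RefSeq window of its gene by 112 bases, so a RefSeq start lay nearer to it. The peaks with a matching name outside it were Rps6ka1 (1550 bp, 0.41), Rps6ka5 (1714 bp, -0.30) and Pik3ip1 (2012 bp, -0.09).

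Genes around these pathways were taken from 5 lists, and 0 of their promoter peaks were called in any list by limma, with 3 of 47 peaks at an unadjusted p under 0.05. That share of 6.38% was no higher than over all peaks (7.6%) or promoter peaks (6.97%), so the genes named here are a description. Members on a list were left out of its counts. Apart from them, neighbours of PI3 kinase and mTOR had peaks at 15 of 30 listed genes, with 11 of 16 peaks higher and a median of 0.16. Mapkap1 is also on that list, and its peak, counted with the members, was at -0.55. Gsk3a, the gene of a kinase that Akt inhibits, was the one below 0.05, at 26.0 ± 3.46 and 37.5 ± 11.6 (0.46 ± 0.20, unadjusted p = 0.0238, adjusted p = 0.587 by limma), and at 0.13 without the shallowest pair. Stress adaptors of the p38 and JNK branches had 1 of 8 peaks higher and a median of -0.23, with Tab3, a partner of TAK1, at 14.2 ± 3.10 and 8.75 ± 2.63 (-0.66 ± 0.31, adjusted p = 0.62 by limma; -0.32 without the shallowest pair). Txnip, the gene of the thioredoxin-binding protein, was at -0.38 and at 0.20 without that pair. Nuclear outputs of MAP kinases were 6 of 10 higher (median 0.03), with the ETS factor gene Elk4 at -0.55 ± 0.26 (adjusted p = 0.633 by limma; -0.21 without the pair) and Atf2 at 0.35. Peaks of the list for upstream Ras and Raf signalling, which is not limited to Ras and Raf genes, were 4 of 10 higher (median -0.17). Of that list, Spry2 was at 0.32 and Shc1 at -0.29. Growth factor and cytokine receptors were 2 of 3 higher (median 0.13), with Insr at 0.26 and Met at 0.13.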

How the data were processed

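ATAC-seq was measured in 4 vehicle and 4 myoglobin libraries. Per the submitters' processing notes, the build was mm10 and the tools included featureCounts, DESeq2 1.36.0, Picard 3.0.0, STAR 2.7.10a and Trimmomatic 0.39; their roles, the peak caller, the handling of duplicates and any Tn5 shift are not given in the sources used here. The authors deposited 1 whole number per peak and library, treated here as a score: library totals nearly agree and whole numbers are skipped at regular steps, as for scaled and rounded reads, so no count test was run. Peak coordinates, distances and gene names are those of the deposited table; whether starts count from 0 or 1 is not given in the sources used here, so an edge may be off by 1 base.

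The scaling factor of each library was estimated by maximum likelihood from those steps in values up to 60, and estimated reads are the values divided by it. limma 3.58.1 in R 4.3.3 was fitted to log2(value + 1) over all 6425 peaks, unfiltered, with treatment as the only term, an intensity trend and Benjamini-Hochberg adjustment (threshold 0.05). The libraries gave 6 residual degrees of freedom per peak and the prior 78.52. The variance behind each SE, interval and p-value thus came mostly from the trend over all peaks. Promoter windows and gene names came from RefSeq tables of GRCm38.p6, read with Python 3.11.15. Only equal replicate numbers could pair libraries; deviations of same-numbered libraries from their group means correlated at 0.0258, 0.0153, -0.0132 and 0.00855 across peaks, so the fit had no block.

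Members and gene lists were chosen with earlier results of these data known. Named genes were, in each of 9 families, the 2 peaks with the smallest p and the tallest per kb; members with groups apart and an unadjusted p under 0.05; the 21 of 36 genes listed for report that had a member peak (1 of them, an item left out of the named results and the interval plot but kept in the fits and group counts, is not reported here); and the 2 peaks of smallest p in each of 5 pathway lists. Other named members (groups apart, 2 peaks to a gene, near the distance limit, or completing a family) were chosen after their values were seen. Alternatives were other pseudocounts (0.1 and 5), filters, scalings, variance models, library weights, distance limits, a replicate block and each library left out. The fit without both of the shallowest libraries was added after seeing the data.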

Additional observations from a re-analysis of the deposited data

Results flagged for a closer look

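Dixon's gap test at the 95% level, run on the 4 libraries of a treatment at each named peak, set 1 library apart from its group in 9 of 124 cases. Chance flags about 1 in 20 cases (6.2 of these), and small whole numbers that tie raise the share: at Map3k7 and Met the other three values were equal. In vehicle replicate 3, the value was 4 at Pik3ca (others 9 to 10), 10 at Camkmt (20 to 22) and 99 at Map3k3 (72 to 73). In vehicle replicate 2, Ppp1r12a at 284 bp was at 9 (3 to 4). In myoglobin replicate 4, Mapk14 was at 20 (11 to 12) and Mapk8 at 35 (23 to 24). In myoglobin replicate 2, Map3k7 was at 12 (all others 13). In myoglobin replicate 3, the shallowest library, Akt1s1 was at 7 (18 to 20) and Met at 9 (all others 11). No member with an unadjusted p under 0.05 was among them.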

How the results depend on the processing

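The number of members called was 0 in every fit, with a lowest adjusted p by limma from 0.122 (without vehicle replicate 1) to 0.75 (without vehicle replicate 3). Members with an unadjusted p under 0.05 numbered 5 to 10 as each library was left out, and 4 of 75 with a minimum mean value of 10, a filter that removes Stk16, Pik3r3 at 9 bp and Csnk1g3. That filter turned the phosphatase median to -0.02. The MAP kinase median ran from -0.03 (without myoglobin replicate 2) to 0.08 as each library was left out, with 0.01 without vehicle replicate 1, and was -0.08 without both of the shallowest libraries, a fit added after seeing the data. The PI3 kinase median ran from -0.27 (without vehicle replicate 1) to -0.01 (without vehicle replicate 4), was 0.02 with the Rps6k genes added, and -0.58 at a distance of 250 bp or less, where 2 peaks remained. The cause of these shifts was not tested. The scalings left the median of all peaks between -0.02 and -0.01. With the replicate block, 0 members were called, 7 had an unadjusted p under 0.05, the MAP kinase, PI3 kinase and phosphatase medians were 0.08, -0.14 and 0.09, and 10 instead of 16 peaks of the table were called; it changed no call among members. The depth ratio was 0.782 with factors from values up to 30 (exact permutation p = 0.457); that range cannot fix the factor of myoglobin replicate 1, whose first skipped value is 42. Of 1166 values for 62 named peaks over 19 settings, 1163 moved by less than the spread between libraries. The others were Stk16 with a pseudocount of 0.1 (2.74), and Ppp3cb at 338 bp (0.36) and Txnip (0.20) without the shallowest libraries. Depth limits what could be seen: 23 members had a vehicle mean under 10, and at 23 members the 95% interval reached past a fold of 2.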
